A study of Mus musculus with 9 samples.

Results

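The voltage-gated sodium channel alpha subunits were represented by 7 of the 21536 genes measured in the trigeminal ganglion: Scn1a, Scn2a1, Scn3a, Scn8a, Scn9a, Scn10a and Scn11a. They were chosen as the family members of neurons. Scn4a, the subunit of skeletal muscle, had 18 UMIs (counted transcripts) in the 7 groups of neurons described here and was not included. The share that each subunit took of the family's transcripts was compared across 7 groups of sensory neurons that had been set by other genes.

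The tissue came from wild-type FVB/N mice of both sexes, 3 to 6 weeks old by the labels and without any treatment or altered allele. Cells were captured by Drop-seq, in which cells are joined to barcoded beads in droplets and each captured transcript receives a molecular tag (UMI). There were 9 runs, each from the pooled ganglia of many mice. The barcodes do not name their run, so all 6997 barcodes, with 30491529 UMIs, formed a single pooled sample in which groups of neurons could not be tested against each other.

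A barcode was taken as a neuron when it had 500 to 7500 genes with a UMI, at least 3 of Tubb3, Snap25, Nefl, Nefm and Uchl1 and no UMI of the epithelial gene Epcam. This left 3801 neurons, whose median depth was 3057 UMIs (1000 in the shallowest and 55655 in the deepest). They held 34054 UMIs of the family, of which Scn9a had 13650, Scn10a 8150, Scn11a 7726, Scn1a 1887, Scn8a 1428, Scn2a1 623 and Scn3a 590. Each neuron joined the first group whose rule it met. The groups were, in this order, Trpm8 neurons with at least 2 UMIs of the cold-activated channel Trpm8 (n = 243 neurons), Mrgprd neurons with at least 2 UMIs of that receptor (379), Mrgpra3 itch neurons with at least 1 (48), Nppb itch neurons with at least 2 (57), Cd34 neurons with at least 1, a marker of touch-sensitive C-fibers (320), Nefh neurons with at least 5 UMIs of the heavy neurofilament and none of the heat-activated channel Trpv1, mostly large myelinated cells (449), and Calca/Trpv1 peptidergic neurons with at least 5 UMIs of the neuropeptide gene Calca and at least 1 of Trpv1 (911). The other 1394 neurons, with a median of 1847 UMIs, stayed ungrouped. Group medians ran from 3406 UMIs in Nppb neurons to 5835.5 in Cd34 neurons.

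Marker genes outside the rules were mostly highest in the group they mark. Foxp2 and Cdh8 were highest in Trpm8 neurons, Lpar3 and Agtr1a in Mrgprd neurons, and Sst, Il31ra, Cysltr2 and Htr1f in Nppb neurons. P2ry1, Fam19a4 and Gm7271 were highest in Cd34 neurons, S100b, Thy1, Pvalb, Ntrk2 and Kcna1 in Nefh neurons, and Tac1 and Adcyap1 in Calca/Trpv1 neurons. Pvalb did not set the Nefh neurons apart, at 118 UMIs per 1000000 against 113 in Trpm8 neurons. On the same scale, Mrgprb5 had 68.3 in Mrgpra3 neurons and 58.4 in Mrgprd neurons. The label of the Mrgpra3 neurons rested on Mrgpra3 itself, since Cysltr1 had 1 UMI in all 7 groups and Mrgprx1 reached only 9.32 on the same scale. Mbp codes for myelin basic protein. A UMI of Mbp was present in 124 of 449 Nefh, 176 of 320 Cd34 and 64 of 243 Trpm8 neurons. Such a UMI was also in 71 of 379 Mrgprd, 10 of 48 Mrgpra3, 11 of 57 Nppb and 202 of 911 Calca/Trpv1 neurons. The part of these glial transcripts in the results was not tested beyond the exclusion given with the alternatives.

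Voltage-gated sodium channels open when a membrane is depolarized and carry the inward current of the action potential, so the set of alpha subunits in a sensory neuron shapes its threshold and its firing. The alpha subunit forms the pore by itself, and smaller beta subunits and cytoplasmic partners modify its gating and place it in the membrane. Most family members are blocked by low concentrations of the pufferfish toxin tetrodotoxin, whereas the products of Scn10a (Nav1.8) and Scn11a (Nav1.9), which are typical of pain-sensing neurons, are resistant. Scn9a (Nav1.7) is known for its role in human pain, Scn1a (Nav1.1) and Scn8a (Nav1.6) for fast repetitive firing, and Scn2a1 (Nav1.2) and Scn3a (Nav1.3) are more typical of the brain and of development.

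The sequences that set the resistant members apart lie at the codon of the domain I pore loop at which an aromatic residue favors toxin binding. The 27 coding bases around that codon are shown for 6 members, 5′ to 3′ on the coding strand, with the codon in capitals.
Scn2a1: atgactcaagacTTCtgggaaaacctt
Scn3a: atgactcaagacTACtgggagaacctt
Scn8a: atgactcaggacTACtgggagaactta
Scn9a: atgactcaggacTACtgggagaacctt
Scn10a: atgacgcaggacTCCtgggaacggctg
Scn11a: atgactcaagacTCCtgggagaagctt
The codon stands for phenylalanine in 1 of them (Scn2a1), for tyrosine in 3 (Scn3a, Scn8a and Scn9a) and for serine in 2 (Scn10a and Scn11a). It is codon 385 of Scn2a1, 384 of Scn3a, 371 of Scn8a, 362 of Scn9a, 356 of Scn10a and 358 of Scn11a in the longest complete GENCODE M21 coding sequence of each gene.

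All 6 windows are in the coding part of exon 9 of those transcripts. In GRCm38, the assembly also called mm10, they are at chr2:65688424-65688450 for Scn2a1, chr2:65521801-65521827 for Scn3a, chr15:100971626-100971652 for Scn8a, chr2:66548989-66549015 for Scn9a, chr9:119666375-119666401 for Scn10a and chr9:119805668-119805694 for Scn11a. Scn2a1 and Scn8a are on the plus strand and the other 4 of these genes on the minus strand. Scn1a, Scn2a1, Scn3a and Scn9a lie together on chromosome 2, and Scn10a (chr9:119608456-119719322) and Scn11a (chr9:119753763-119825456) are neighbors on chromosome 9. In alignments of whole coding sequences, Scn2a1 and Scn3a were 83.6% identical, the highest of the 21 pairs, and Scn3a and Scn11a were 64.2% identical, the lowest. Scn10a and Scn11a were 65.8% identical, close to the 66.4% of Scn9a and Scn10a, so these resistant members were not a closely matched pair outside the codon shown. The short inactivation motif between domains III and IV was found in all 6.

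The level of a subunit is given as its UMIs in 1000000 UMIs of a group (CPM), with an exact Poisson 95% interval in parentheses where it is printed. Its share is given as a percentage of the family's UMIs with an exact binomial 95% interval. Drop-seq counts transcript ends, so the values were not scaled to gene length, and how well each gene is captured was not measured. All intervals cover counting error only, not the differences between mice or runs, and fewer transcripts per cell cannot be told apart from a smaller share of cells in a sum.

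The family as a whole was most abundant in Mrgprd neurons at 2989 CPM (2930.3 to 3049) and in Mrgpra3 neurons at 2777 (2598 to 2966). Nppb neurons followed with 1733, Cd34 neurons with 1601, Nefh neurons with 1454, Calca/Trpv1 neurons with 1304 and Trpm8 neurons with 824 (786 to 864). Cold-sensing neurons had the lowest level of alpha subunit transcripts of the 7 groups, even though their median depth, 5689 UMIs, was among the highest.

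The resistant subunits Scn10a and Scn11a made up 74.9% of the family in Mrgprd neurons (74.1 to 75.8) and 74.8% in Mrgpra3 neurons (71.9 to 77.6). Their joint share was 59.6% in Nppb neurons (55.1 to 63.9), 54.5% in Calca/Trpv1 neurons (53.3 to 55.8), 27.6% in Cd34 neurons (26.3 to 28.9), 14.6% in Nefh neurons (13.7 to 15.6) and 2.92% in Trpm8 neurons (2.18 to 3.82). Only the 2 highest groups, and the Nppb and Calca/Trpv1 groups, had overlapping intervals among neighbors in this order. In the Mrgprd, Mrgpra3, Nppb and Calca/Trpv1 groups the resistant subunits thus held more than 50% of the family, and in the Cd34, Nefh and Trpm8 groups under 30%.

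**Figure D1:**
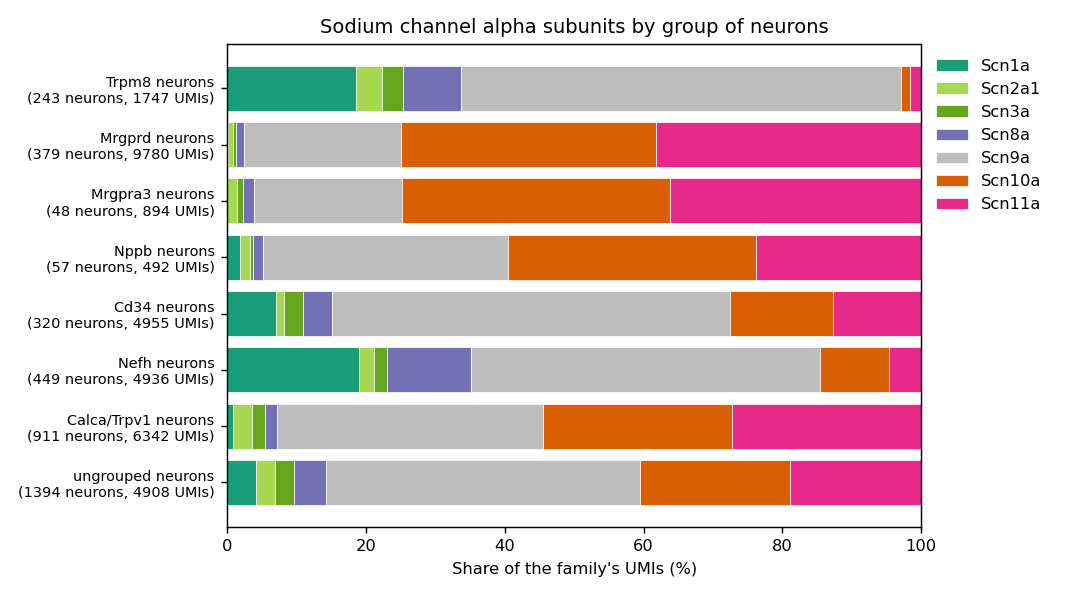
Share of each alpha subunit in the family's UMIs (horizontal axis, %) for the 7 groups of neurons and the ungrouped neurons (rows, with the number of neurons and of family UMIs). Scn10a and Scn11a together fill 74.9% of the bar in Mrgprd neurons and 2.92% in Trpm8 neurons, whereas Scn1a is visible mainly in Trpm8 (18.5%), Nefh (19.0%) and Cd34 (7.04%) neurons.

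Scn10a, which carries most of the action potential current in many pain-sensing neurons, was at 1098 CPM in Mrgprd neurons, 1072 in Mrgpra3, 619.8 in Nppb, 355 in Calca/Trpv1, 238 in Cd34, 145 in Nefh and 11.3 in Trpm8 neurons. Only the first pair in this order had overlapping intervals (1062 to 1134 and 962 to 1191). The ratio of Mrgprd to Trpm8 neurons was 96.9 (65.0 to 151). It was 292 (80.8 to 2416) among neurons that met 1 group rule only, with 2 UMIs in Trpm8 neurons. After thinning to 1000 UMIs it was 74.2 (28.8 to 274), with 4 UMIs, and without neurons with Mbp 136 (75.8 to 272).

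Scn11a, which carries a persistent current near the resting potential, followed the same order. It was at 1142 CPM in Mrgprd neurons, 1007 in Mrgpra3, 412 in Nppb, 356 in Calca/Trpv1, 204 in Cd34, 68.0 in Nefh and 12.7 in Trpm8 neurons. Here the Mrgprd and Mrgpra3 groups overlapped, as did the Nppb and Calca/Trpv1 groups. The ratio of Mrgprd to Trpm8 neurons was 89.6 (61.5 to 136). It was 291 (52.0 to 11522) after thinning to 1000 UMIs, with 1 UMI in Trpm8 neurons, 302 (83.5 to 2495) among neurons that met 1 group rule only, with 2 UMIs, and 223 (108 to 555) without neurons with Mbp. Over the 7 groups the log2 levels of Scn10a and Scn11a had a Pearson correlation of 0.98, the highest of any pair of members. This correlation describes 7 groups that share their runs.

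The pair did not keep a fixed ratio. Scn10a fell from Mrgprd to Nefh neurons by a ratio of 7.59 (6.90 to 8.36), and Scn11a by 16.8 (14.7 to 19.3). In Nppb neurons Scn11a was lower than in Mrgprd neurons by a ratio of 2.77 (2.31 to 3.36), against 1.77 (1.52 to 2.07) for Scn10a. In Nefh neurons Scn10a took 9.95% of the family and Scn11a 4.68%, in Nppb neurons 35.8% and 23.8%, and in Calca/Trpv1 neurons 27.2% and 27.3%, which did not differ beyond counting error.

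The low values in Trpm8 neurons had intervals that overlapped or lay below those of barcodes that should lack both genes. Scn10a was at 11.3 CPM (7.26 to 16.9) and Scn11a at 12.7 (8.40 to 18.5). Red blood cell-like barcodes (n = 796, median 1273 UMIs) held 18.8 CPM of Scn10a (11.6 to 28.7) and 9.83 of Scn11a (4.91 to 17.6), and the 154 glia-like barcodes (median 1543 UMIs) held 20.2 (7.43 to 44.1) and 3.37 (0.09 to 18.8), the latter from 1 UMI. Haemoglobin genes made up 61.9% of the UMIs of the red blood cell-like barcodes and 0.40% of those of Trpm8 neurons, and without them the red blood cell-like levels were 49.3 CPM of Scn10a (30.5 to 75.3) and 25.8 of Scn11a (12.9 to 46.2), against 11.4 (7.29 to 16.9) and 12.8 (8.43 to 18.6) in Trpm8 neurons. Shares of red blood cell-like barcodes with a UMI, here and for the other members, are lowered by haemoglobin in the same way. How transcripts of these genes came into barcodes of other cell types was not tested. After each barcode was thinned to 1000 UMIs, 1.65% of Trpm8 neurons had a UMI of Scn10a, against 1.63% of red blood cell-like and 1.299% of glia-like barcodes. For Scn11a the shares were 0.41%, 0.88% and 0%, the last being 0 of 154 barcodes. Before thinning, 6.58% of Trpm8 neurons had a UMI of Scn10a and 4.12% of Scn11a.

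The few resistant transcripts of Trpm8 neurons were also concentrated. Of 51 UMIs, 32 were in the 4 neurons with most, and 223 of the 243 neurons had none. The 19 Trpm8 neurons that also met the Calca/Trpv1 rule held 32 of the 51 UMIs, 11.7% of their family UMIs (8.13 to 16.1), and the 128 that also met the Nefh rule held 15, or 1.47% (0.83 to 2.42). Among the 94 neurons that met no other rule the share was 0.89% (0.24 to 2.26). Whether neurons that met both rules were single cells was not tested.

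**Figure D2:**
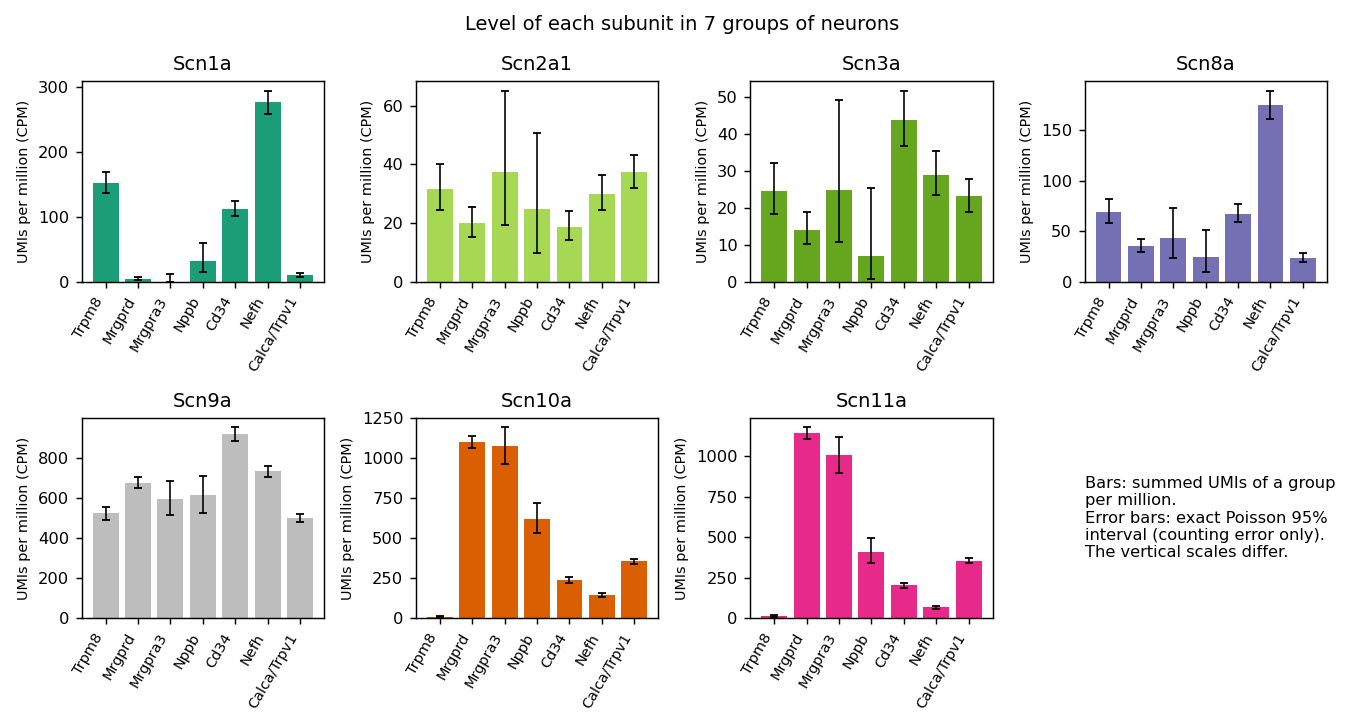
Level of each subunit (CPM, vertical axes, on different scales) in the 7 groups of neurons (horizontal axes), with exact Poisson 95% intervals as error bars. Scn10a and Scn11a run from 11.3 and 12.7 CPM in Trpm8 neurons to 1098 and 1142 CPM in Mrgprd neurons, Scn1a and Scn8a peak in Nefh neurons at 277 and 175 CPM, and Scn9a stays between 499 and 917 CPM.

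Scn9a, which amplifies small depolarizations, was abundant in every group and ranged least of the 7 members, although the range of Scn2a1 was not told apart from it. It was at 917 CPM in Cd34 neurons (883 to 951), 731 in Nefh (703 to 760.4), 676 in Mrgprd, 613 in Nppb, 593 in Mrgpra3, 522 in Trpm8 and 499 in Calca/Trpv1 neurons (479 to 519). Cd34 neurons stood above all other groups, and each later neighbor in the order overlapped the next. The ratio of the highest to the lowest group was 1.84 (1.74 to 1.94). Its share moved much more than its level, from 21.4% in Mrgpra3 neurons (18.7 to 24.2) and 22.6% in Mrgprd neurons to 63.4% in Trpm8 neurons (61.1 to 65.6) as the rest of the family differed more than Scn9a did.

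Scn1a showed the sharpest division among the sensitive members. It was at 277 CPM in Nefh neurons (259 to 295), 152 in Trpm8 (136 to 170.0) and 113 in Cd34 neurons (101 to 125), and none of these intervals overlapped. In the other 4 groups it was at 31.7 CPM in Nppb, 9.87 in Calca/Trpv1, 4.28 in Mrgprd and 0 in Mrgpra3 neurons. The level in Nefh neurons was 28.0 times that in Calca/Trpv1 neurons (21.0 to 38.3) and 64.6 times that in Mrgprd neurons (38.3 to 119). These are ratios of measured levels, and both lower levels could not be told apart from those of red blood cell-like barcodes. None of the 321894 UMIs of the 48 Mrgpra3 neurons was from Scn1a. Nefh neurons were 29.7-fold above a limit of 3 counts over that group. The exact interval of the ratio of Mrgpra3 to Nefh neurons ran from 0 to 0.0415.

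The value of Scn1a in Nppb neurons came from a single barcode. All 9 UMIs were in 1 neuron with 30290 UMIs that met the Nefh rule as well, with 23 UMIs of Nppb, 52 of Nefh, 45 of S100b and 25 of Sst. This neuron was looked up after the group value had been seen. The other 56 Nppb neurons had no UMI of Scn1a, which allows up to 11.8 CPM at 3 counts, and Scn10a and Scn11a took 62.1% of their family UMIs. After thinning to 1000 UMIs, a UMI of Scn1a was present in 23.4% of Nefh, 15.2% of Trpm8 and 10.6% of Cd34 neurons, against 0.88% of Calca/Trpv1 neurons, 0.53% of Mrgprd neurons and 0.25% of red blood cell-like barcodes. The level of Scn1a in Mrgprd neurons, 4.28 CPM (2.34 to 7.18), did not exceed that of the red blood cell-like barcodes, 5.36 (1.97 to 11.7), or 14.1 (5.17 to 30.6) without haemoglobin. The interval of Calca/Trpv1 neurons (7.28 to 13.1) overlapped both.

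Scn8a, the main channel of the nodes of myelinated axons, was highest in Nefh neurons at 175 CPM (161 to 189). Trpm8 neurons had 69.4 CPM, Cd34 neurons 67.5, Mrgpra3 neurons 43.5, Mrgprd neurons 35.5, Nppb neurons 24.7 and Calca/Trpv1 neurons 23.8 (19.7 to 28.6). From Trpm8 neurons downward each group overlapped the next in order. Nefh neurons exceeded Calca/Trpv1 neurons by a ratio of 7.32 (5.99 to 9.02) and Trpm8 neurons by 2.52 (2.10 to 3.04). The first ratio was 14.1 (8.15 to 26.04) after thinning, 13.6 with each neuron weighted equally and 11.99 with the level of glia-like barcodes subtracted. Scn8a was at 10.1 CPM in glia-like barcodes (2.09 to 29.6) and at 6.26 in red blood cell-like barcodes, or 16.4 (6.60 to 33.8) without haemoglobin, and the interval of Calca/Trpv1 neurons overlapped the first and the last of these. Scn8a made up 12.01% of the family in Nefh neurons (11.1 to 12.9) and 8.41% in Trpm8 neurons (7.15 to 9.82), but 1.83% in Calca/Trpv1 neurons (1.51 to 2.19) and 1.19% in Mrgprd neurons (0.98 to 1.42).

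Scn2a1 and Scn3a were scarce in every group, at or below 43.6 CPM. Scn2a1 was at 37.3 CPM in Mrgpra3, 37.2 in Calca/Trpv1, 31.6 in Trpm8, 30.04 in Nefh, 24.7 in Nppb, 19.9 in Mrgprd and 18.7 in Cd34 neurons, and each group overlapped the next. The ratio of the highest to the lowest group was 1.99 with an interval that included 1 (0.97 to 3.75), whereas the more deeply sampled Calca/Trpv1 neurons exceeded Cd34 neurons by 1.99 (1.47 to 2.72). In red blood cell-like barcodes Scn2a1 was at 0.89 CPM, or 2.35 without haemoglobin. Glia-like barcodes had 13.5 (3.68 to 34.6) and endothelial-like barcodes 16.5 (1.996 to 59.5). The intervals of all groups of neurons overlapped both of these, including Mrgpra3 (19.3 to 65.1) and Calca/Trpv1 neurons (32.0 to 43.0). With the glia-like level subtracted, the ratio of the highest to the lowest group was 4.54.

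Scn3a was highest in Cd34 neurons at 43.6 CPM (36.6 to 51.6), above all other groups except Mrgpra3 neurons, whose interval was wide (10.7 to 49.0). Nefh neurons had 28.9 CPM, Mrgpra3 neurons 24.9, Trpm8 neurons 24.5, Calca/Trpv1 neurons 23.0, Mrgprd neurons 14.1 and Nppb neurons 7.04, which was 2 UMIs. Cd34 neurons exceeded Mrgprd neurons by a ratio of 3.10 (2.20 to 4.43) and Nppb neurons by 6.19 (1.68 to 51.7), a ratio that was 25.98 with each neuron weighted equally. Glia-like barcodes had no UMI of Scn3a (0 to 12.4), and red blood cell-like barcodes had 4.69 CPM without haemoglobin (0.57 to 17.0). The intervals of Mrgprd (10.3 to 18.8) and Nppb neurons (0.85 to 25.4) overlapped both, so these lower levels were not told apart from those barcodes.

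These differences were set against all genes. Of 10270 genes with at least 100 UMIs in the 7 groups, 25.9% differed at least 4-fold between their highest and lowest group, with 1 UMI added to each sum, and 5 of the 7 members did (Scn1a, Scn3a, Scn8a, Scn10a and Scn11a). Scn3a passed narrowly, at 4.16, and Scn2a1 and Scn9a had 2.12 and 1.84. The median ratio was 7.27 over the members and 2.41 over all genes. Between Nefh and Calca/Trpv1 neurons, 8.22% of genes were at least 2-fold higher in Nefh neurons, among them Scn1a and Scn8a, and 8.41% were at least 2-fold lower, among them Scn10a and Scn11a. Trpm8 neurons were at least 2-fold above the other 6 groups summed for 3.34% of genes and 0 members, and at least 2-fold below for 11.8% of genes and 2 members, again Scn10a and Scn11a. For Scn10a the ratio of Trpm8 neurons to the others was 0.025 and for Scn11a 0.030, while it was 0.77 for Scn9a, 1.01 for Scn8a and 1.71 for Scn1a.

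The mixture differed between most groups, except that the Mrgprd and Mrgpra3 groups had overlapping intervals for the shares of all 7 members. In Trpm8 neurons Scn9a led with 63.4%, followed by Scn1a with 18.5%, Scn8a with 8.41%, Scn2a1 with 3.84% and Scn3a with 2.98%. In Cd34 neurons Scn9a led with 57.3%, followed by Scn10a with 14.9%, Scn11a with 12.7%, Scn1a with 7.04% and Scn8a with 4.22%. In Nefh neurons Scn9a led with 50.3%, ahead of Scn1a with 19.0%. The Trpm8 and Nefh groups thus had overlapping shares of Scn1a (16.7 to 20.4 and 17.9 to 20.1) although its level was 1.81 times as high in Nefh neurons (1.60 to 2.07).

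Mrgprd neurons had nearly equal parts of Scn11a, at 38.2% (37.2 to 39.2), and Scn10a, at 36.7% (35.8 to 37.7). In Mrgpra3 neurons the parts were 36.2% and 38.6%, with overlapping intervals. In Nppb neurons Scn10a with 35.8% and Scn9a with 35.4% could not be ordered. Calca/Trpv1 neurons had 38.3% of Scn9a (37.1 to 39.5), above Scn10a and Scn11a. The ungrouped neurons lay between these patterns, with 45.3% of Scn9a, 21.6% of Scn10a, 18.9% of Scn11a, 4.605% of Scn8a and 4.18% of Scn1a.

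At least 1 UMI of Scn10a or Scn11a was found in 377 of 379 Mrgprd, 47 of 48 Mrgpra3, 55 of 57 Nppb and 727 of 911 Calca/Trpv1 neurons. Within single neurons the resistant share was examined in those with at least 5 UMIs of the family, a filter that neurons without both genes pass less easily where these genes make up most of the family. In Mrgprd neurons (n = 356) its quartiles were 66.7% and 81.8%, the lowest neuron was at 33.3%, and none lacked both genes. The 40 Mrgpra3 neurons had a median of 76.6% and the 37 Nppb neurons a median of 60%, and none of these lacked both genes either. The 459 Calca/Trpv1 neurons ranged from 0% to 100% with a median of 57.1%, and 14 had neither gene.

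Touch and cold neurons looked different. Of the 252 Cd34 neurons, 18 had neither gene and the quartiles were 17.2% and 37.5%, so a moderate resistant share was spread over most of the group. Of the 286 Nefh neurons, 136 (47.6%) had neither gene and another 19 had more than 50%, so the group's 14.6% was an average over unlike neurons. Of the 130 Trpm8 neurons, 115 (88.5%) had neither.

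**Figure D3:**
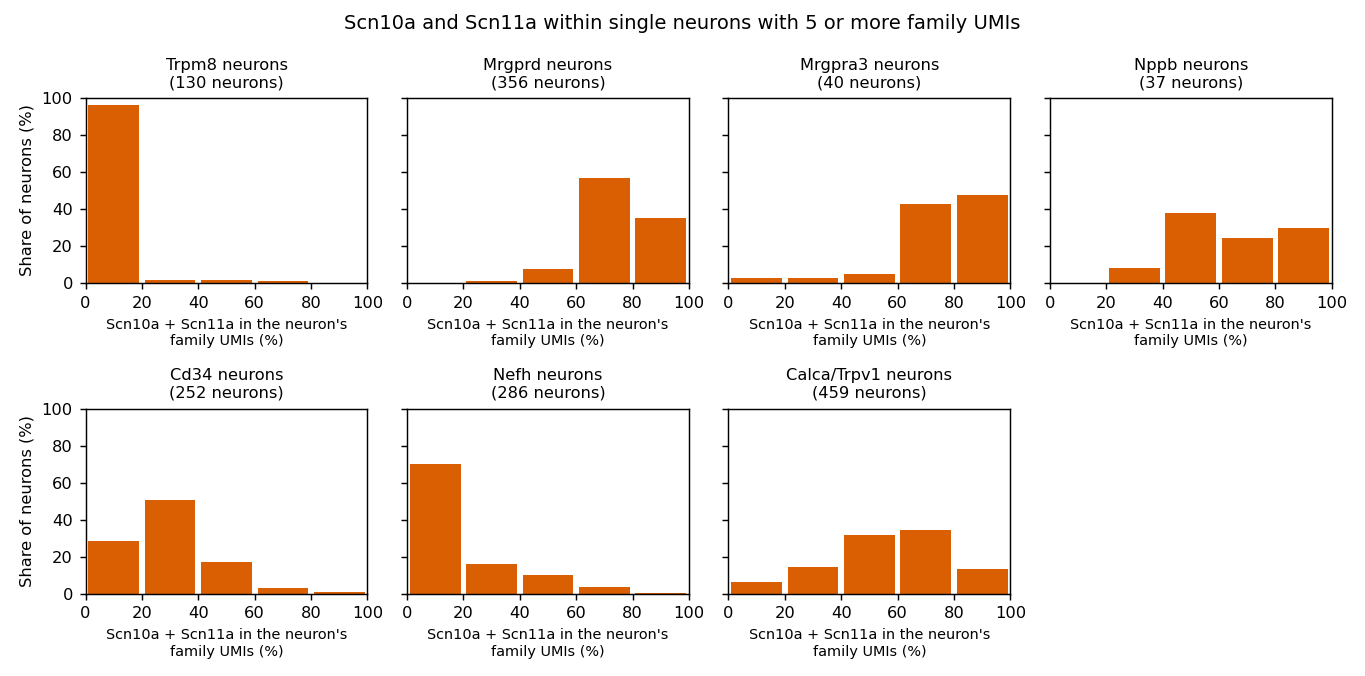
Distribution of the share of Scn10a and Scn11a in a neuron's family UMIs (horizontal axes, %, in 5 bins) over the neurons of each group with at least 5 family UMIs (vertical axes, % of neurons). Trpm8 neurons fall almost wholly in the lowest bin (96.2%), Nefh neurons have 70.3% there with a tail to higher shares, Cd34 neurons center on the second bin (50.8%), and 91.6% of Mrgprd neurons lie in the upper 2 bins.

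An uneven spread in Nefh neurons was seen in how many had a UMI at all. Scn10a was found in 28.5% of them (n = 128, median 4112 UMIs), against 2.51% of red blood cell-like barcodes, whereas a Poisson draw at the group's level with each neuron's own depth would give 50.3%. For Scn11a these were 23.6% and 32.3%. Scn8a, in contrast, was found in 54.6% of Nefh neurons against 55.2% for an even spread, and Scn1a in 61.02% against 67.5%. In Mrgprd neurons Scn10a was found in 98.4% and Scn11a in 98.2%, and in Cd34 neurons in 67.8% and 65.3%, against 72.9% and 68.9% for an even spread.

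Most neurons held transcripts of several members. The median number of different members with a UMI was 4 in Cd34 neurons, 3 in Mrgprd, Mrgpra3, Nppb and Nefh neurons and 2 in Trpm8 and Calca/Trpv1 neurons. At least 2 members were found in 98.9% of Mrgprd neurons, 88.4% of Cd34 neurons, 82.6% of Nefh neurons, 75.6% of Calca/Trpv1 neurons and 73.3% of Trpm8 neurons. Thinned to 1000 UMIs, the shares were 73.6%, 35.3%, 33.2%, 27.0% and 13.6%, so these counts depend on depth.

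Pairs of members divided Scn1a, but not Scn8a, from the resistant members inside the Nefh group. Scn10a and Scn11a were found together in 64 Nefh neurons, against 30.2 given by the product of their shares, and after thinning in 12 against 4.21. Scn1a and Scn8a were together in 173 against 149.5, and after thinning in 26 against 18.9. Scn8a was also with Scn10a in 81 against 69.8, and after thinning in 11 against 9.74. With Scn11a it was in 63 against 57.8, and after thinning in 8 against 6.31. Scn1a, however, was with Scn11a in 56 against 64.7, and after thinning in 5 against 8.18. Scn1a and Scn10a were together in 58, below the product of 78.1, and after thinning in 5 against 12.6. In Cd34 neurons the same pair was together in 122 neurons, above the product of 108.5, and in 7 against 7.76 after thinning.

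Splitting the Nefh neurons by Calca separated the resistant members. The 89 Nefh neurons with at least 5 UMIs of Calca had 421 CPM of Scn10a, and the 360 with fewer had 41.3, a ratio of 10.2 (8.19 to 12.8). Scn11a was at 143 and 40.05 CPM, a ratio of 3.57 (2.73 to 4.68). Scn1a ran the other way, at 104 and 341 CPM, a ratio of 0.30 (0.24 to 0.38), and Scn8a at 143 and 187, a ratio of 0.77 (0.63 to 0.93). Scn10a and Scn11a together took 33.6% of the family (31.2 to 36.0) in the Calca-rich neurons and 5.94% (5.17 to 6.79) in the others. The medians of these sets differed, with 6021 and 3790.5 UMIs, and the part of depth was not tested.

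The neurotrophin receptor Ntrk2 marked the opposite end. In the 132 Nefh neurons with a UMI of Ntrk2, Scn10a was at 29.1 CPM against 220.1 in the 317 without, a ratio of 0.13 (0.09 to 0.18), and Scn11a at 26.1 against 95.4, a ratio of 0.27 (0.19 to 0.39). Scn8a was at 195 against 161 CPM, a ratio of 1.21 (1.03 to 1.43), and Scn1a at 299.7 against 261, a ratio of 1.15 (1.004 to 1.31). Here the neurons with Ntrk2 were the deeper ones, with medians of 5226 and 3613 UMIs. A UMI of S100b went with a smaller difference in the joint resistant share. The share was 14.2% (13.1 to 15.2) in the 357 neurons with S100b and 18.1% (15.0 to 21.6) in the 92 without, with overlapping intervals. Of the 103 resistant UMIs in the 92 neurons, 25 were in 1 neuron. As levels, the neurons with S100b had less of Scn10a and Scn11a together, a ratio of 0.58 (0.47 to 0.72), of Scn3a, 0.28 (0.18 to 0.46), and of Scn9a, 0.77 (0.68 to 0.87), and their median depth was 4965 UMIs against 2617.5.

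Trpm8 neurons were divided by Nefh and the neuropeptide gene Gal, and by Trpv1. The 172 with at least 5 UMIs of Nefh had 165 CPM of Scn1a and 74.6 of Scn8a, and the 41 with Gal and fewer Nefh UMIs had 45.7 and 18.3, ratios of 3.62 (1.94 to 7.63) and 4.08 (1.56 to 15.2). Scn9a was alike, at 517 and 557 CPM, a ratio of 0.93 (0.77 to 1.13). The second set held only 10 UMIs of Scn1a and 4 of Scn8a, and because the sets differ in both Nefh and Gal, the differences cannot be put to either gene. Scn11a had 15 UMIs in the first set and 12 in the second, the latter in 4.88% of its neurons. Depth differed between these sets too, with medians of 7638.5 and 3851 UMIs. By Trpv1, the joint resistant share was 5.95% (4.16 to 8.22) in the 60 Trpm8 neurons with a UMI and 1.45% (0.84 to 2.30) in the 183 without. Scn11a had 22 and 5 UMIs in these sets, a ratio of 10.4 (3.84 to 35.1). The 22 UMIs were in 6 of the 60 neurons. All 34 UMIs of Scn10a and Scn11a in that set were in 8 neurons, 13 of them in 1 neuron. Between the sets, Scn2a1 had a ratio of 2.43 (1.46 to 4.05) and Scn1a of 0.70 (0.53 to 0.91), with median depths of 8439.5 and 4988 UMIs.

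**Figure D4:**
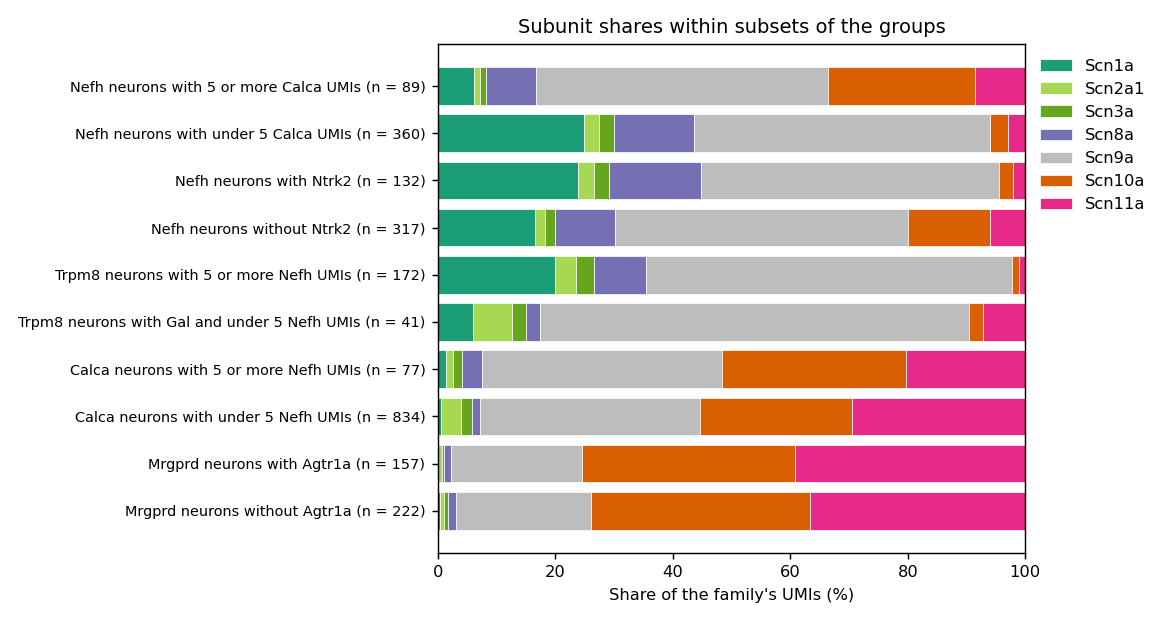
Share of each subunit in the family's UMIs (horizontal axis, %) in subsets of the Nefh, Trpm8, Calca/Trpv1 (written Calca) and Mrgprd neurons (rows, n = number of neurons). Calca-rich Nefh neurons have 33.6% of Scn10a and Scn11a against 5.94% in the others, whereas the shares of Scn9a, Scn10a and Scn11a in Mrgprd neurons are close with and without Agtr1a.

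Calca/Trpv1 neurons were split by Nefh and by Trpa1. The 77 with at least 5 UMIs of Nefh had 452 CPM of Scn10a against 329 in the other 834, a ratio of 1.37 (1.23 to 1.53), and 290.3 against 373 of Scn11a, a ratio of 0.78 (0.68 to 0.88). Scn8a was at 49.3 against 17.0 CPM, a ratio of 2.91 (1.98 to 4.26), and Scn1a at 20.3 against 7.05, a ratio of 2.88 (1.55 to 5.29). Scn2a1 ran the other way, at 16.4 against 42.8 CPM, a ratio of 0.38 (0.22 to 0.63). The medians of these sets were 11255 and 3311 UMIs. Neurons with a UMI of the irritant receptor Trpa1 (n = 436) had less Scn10a than those without (n = 475), at 305 and 418 CPM, a ratio of 0.73 (0.66 to 0.80), and the same level of Scn11a within counting error, a ratio of 0.98 (0.89 to 1.08). Scn1a was at 5.91 against 14.8 CPM, a ratio of 0.40 (0.20 to 0.75), and the medians were 4337 and 3098 UMIs. In both splits the Scn1a levels lay within the interval of red blood cell-like barcodes without haemoglobin (5.17 to 30.6). These levels were thus not told apart from those barcodes.

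In Mrgprd neurons the abundant members did not differ beyond counting error with Agtr1a. In the 157 with a UMI of Agtr1a and the 222 without, Scn10a was at 1084 and 1119 CPM, a ratio of 0.97 (0.91 to 1.04), Scn11a at 1169.8 and 1099, a ratio of 1.06 (0.996 to 1.14), and Scn9a at 667 and 689.7, a ratio of 0.97 (0.89 to 1.05). The scarce Scn1a had 4 UMIs with Agtr1a and 10 without, a ratio of 0.26 (0.06 to 0.89). Its levels, 2.01 and 7.83 CPM, did not exceed that of red blood cell-like barcodes (1.97 to 11.7) beyond counting error. The median depths were 9346 and 4162 UMIs.

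Other cells of the preparation held less of the family, with one exception. The whole family was at 67.5 CPM in glia-like, 69.7 in red blood cell-like, 49.5 in endothelial-like (n = 61) and 176 in pituitary-like barcodes (n = 430). Without haemoglobin genes the red blood cell-like value was 183 CPM and the pituitary-like value 179, while glia-like barcodes stayed at 68.2. In the pituitary-like barcodes Scn3a and Scn8a were spread over 48 and 53 barcodes, at 40.5 CPM (30.8 to 52.2) and 43.2 CPM (33.2 to 55.3), above the red blood cell-like values of 1.79 (0.22 to 6.46) and 6.26 (2.52 to 12.9). Without haemoglobin genes Scn3a was still higher, at 31.2 to 52.9 against 0.57 to 17.0, whereas the intervals of Scn8a met, at 33.6 to 56.01 and 6.60 to 33.8. Of their 61 UMIs of Scn9a, 27 were in 1 barcode.

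The 161 olfactory neuron-like barcodes (median 1352 UMIs) had 1178 CPM of Scn9a (1072 to 1292), in 118 of them, above every group of trigeminal neurons. Of these 453 UMIs, 83 were in 1 barcode, and the other 160 barcodes had 1277 CPM (1150.03 to 1414). Scn9a made up 74.9% of their family UMIs (71.2 to 78.3). Scn10a had 67 UMIs in only 4 of these barcodes, 55 of them in 1 barcode, and Scn3a was at 83.2 CPM in 27 barcodes. The rules for these cell types were set after the data had been seen.

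**Figure D5:**
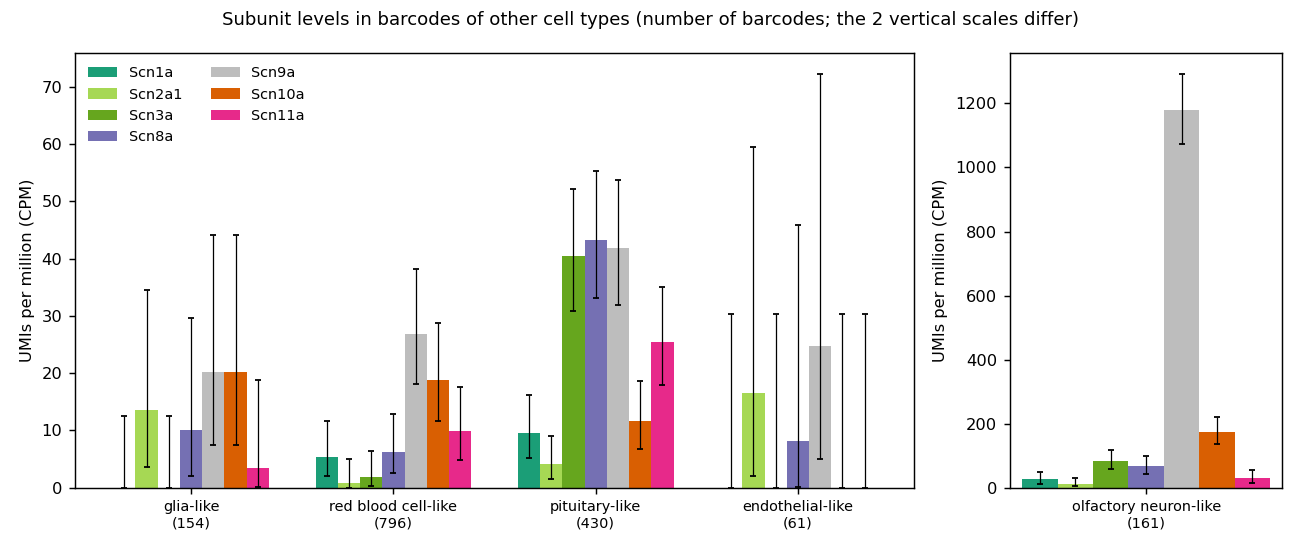
Level of each subunit (CPM, vertical axes on 2 scales) in barcodes of other cell types (horizontal axis, number of barcodes in parentheses), with exact Poisson 95% intervals as error bars. The 5 types hold little of the family except olfactory neuron-like barcodes, where Scn9a reaches 1178 CPM, and the Scn10a bar beside it rests on 4 barcodes.

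For each member, the genes most like it over the 7 groups were listed among 5868 genes with at least 500 UMIs, by the Pearson correlation of log2(CPM + 1). Scn10a was most like Ret, the GDNF receptor kinase of nonpeptidergic neurons (r = 0.99), which was at 631 CPM in Mrgprd neurons and 40.1 in Trpm8 neurons, and next like Ctsd (0.99) and Tom1l2 (0.98). Scn11a was most like Zdhhc12, a palmitoyltransferase gene, at 76.7 and 7.08 CPM in these groups (r = 0.998), Mapk3 (0.996) and Cep170b (0.99). Scn8a was most like Mrpl28 (0.97), Cntnap1, a gene of the axon beside the node (0.97), at 113 CPM in Nefh and 18.3 in Calca/Trpv1 neurons, and Pfdn4 (0.96).

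The closest genes to Scn1a were Snrpn, Exoc3 and Ublcp1 (r = 0.99, 0.98 and 0.98), and those to Scn9a were Smc4, Psmc1 and Gripap1 (0.98, 0.97 and 0.97). Scn3a was closest to Arhgap20, Bud31 and Nptx1 (0.98, 0.97 and 0.96), and Scn2a1 to Gap43, a growth-associated protein, Napb and Zyg11b (0.95, 0.95 and 0.94). With 7 points and 5868 genes, high values are reached easily. Among the members themselves Scn1a and Scn11a had the most negative value (-0.82) and Scn1a and Scn8a had 0.64.

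A list of 24 other genes of sodium channel function, set by their roles, was read in the same way. Of the 21 with at least 100 UMIs, 7 (33.3%) differed at least 4-fold between groups, near the 25.9% of all genes, with a median ratio of 3.43 against 2.41 over all genes. Between Nefh and Calca/Trpv1 neurons 6 of the 21 were at least 2-fold higher in Nefh neurons, against 8.22% of all genes, and 3 at least 2-fold lower, against 8.41%. In Trpm8 neurons 1 of the 21 was at least 2-fold above the other 6 groups summed, against 3.34% of all genes, and 2 at least 2-fold below, against 11.8%.

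The 3 beta subunits read here, which bind the alpha subunit, did not share one pattern. Scn4b, which has been linked to the resurgent current of fast-firing neurons, was at 257 CPM in Nefh, 239 in Cd34 and 232 in Trpm8 neurons, the 3 groups with most Scn1a, and at 79.2 in Mrgprd, 70.4 in Nppb, 43.5 in Mrgpra3 and 14.0 in Calca/Trpv1 neurons. Scn2b ranged only from 67.9 to 143 CPM, and Scn3b from 42.9 in Trpm8 to 146 in Mrgpra3 neurons.

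Scn7a codes for the related sodium sensor Nax rather than a voltage-gated channel. It was at 1089 CPM in Trpm8, 821 in Nefh and 813 in Cd34 neurons and between 186 and 296 in the other 4 groups. Scn7a so outnumbered the family's 824 CPM in Trpm8 neurons. Its level in glia-like barcodes is not given here, and a glial part in it was not tested. Fgf12, a cytoplasmic partner that alters inactivation, was at 565 CPM in Cd34 and 451 in Nefh neurons and at most 230.5 elsewhere. The scaffold genes Nfasc and Nrcam, which anchor channels at nodes, were highest in Nefh neurons at 116 and 114 CPM and at 8.86 and 13.4 in Mrgprd neurons. Nedd4l, a ubiquitin ligase that removes sodium channels from the membrane, was at 337 CPM in Mrgprd neurons and at 45.3 in Trpm8 and 68.9 in Nefh neurons. Pdzd2, a PDZ protein, was at 15.0 CPM in Calca/Trpv1 neurons and had no UMI in Nppb neurons.

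Antisense genes overlap some members in the annotation, and the strand setting of the counting is not given in the sources used here, so their reads could not be told apart. The table lists Gm13629, beside Scn9a, with 41 UMIs in neurons, Gm13630, beside Scn1a, with 10 and Gm13595, beside Scn3a, with 1, all small against the members' own counts.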

How the data were processed

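Drop-seq was run 9 times on dissociated trigeminal cells of the FVB/N strain. The table used here, deposited by the authors, holds raw UMI counts per gene and barcode, with no normalization; bcl2fastq 2.17, STAR 2.5.3a and Seurat 1.4.0.16 and the build mm10 are named in the submitters' processing notes, and the annotation release is not given in the sources used here. All barcodes had at least 1000 UMIs. The members, groups and gene lists were chosen with earlier results of these data known. UMIs were summed over the neurons of a group and divided by the family's UMIs or by the group's total (Python 3.11.15, SciPy 1.17.1). Intervals are exact (Clopper-Pearson, Poisson, and conditional binomial for ratios) at 95% and cover counting error only. With 1 pooled sample no test was run, and a fold of 4 or 2 stood in for a call.

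Scripts were tested on simulated data. Thinning drew 1000 UMIs from each barcode without replacement. No doublet caller was run, and neurons that met more than 1 group rule were left out as an alternative. Of the barcode names, 6 occur in 2 columns each, and the 12 columns were kept. Red blood cell-like barcodes had at least 10% of UMIs from haemoglobin genes, pituitary-like ones at least 2% from hormone genes and the others at least 3 markers, each with at most 1 of the neuron genes. The 61 that fitted several types were left out. The rule for named genes took all members in every group, the 3 genes most correlated with each, and of the other channel genes the beta subunits and those with a 4-fold range. Some listed genes, 1 sequence and 1 set of excluded neurons are not reported here. The planned comparison of proteins was made on GENCODE coding sequences (Biopython 1.88).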

Additional observations from a re-analysis of the deposited data

How the results depend on the processing

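No paired analysis was possible because the barcodes carry no run number, and for the same reason no run could be left out. The 13 alternatives gave 182 values of the joint share of Scn10a and Scn11a and of the leading subunit's share, of which 156 stayed within the interval of the reported value. Trpm8 neurons had the lowest joint share under all 13, and Mrgprd or Mrgpra3 neurons the highest. Of 546 shares of the other members 490 stayed within their intervals, and of 75 ratios of the highest to the lowest group 61 did. Of 98 shares of neurons with a UMI, taken after thinning or with 2 UMIs required, 10 did. Of 5 alternative values for the percentage of all genes that differed, 4 stayed and 1 moved. The leading subunit changed only from Scn11a to Scn10a in Mrgprd neurons (neurons weighted equally, and thinned) and from Scn10a to Scn9a in Nppb neurons (4 or more neuron genes).

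With each neuron weighted equally, the joint share was 2.08% in Trpm8, 65.7% in Nppb, 26.2% in Cd34, 12.2% in Nefh and 52.7% in Calca/Trpv1 neurons, and Scn9a had 47.4% in Nefh and 39.95% in Calca/Trpv1 neurons. Thinned to 1000 UMIs, the joint share was 80.3% in Mrgpra3, 15.8% in Nefh and 57.4% in Calca/Trpv1 neurons, Scn11a had 36.9% in Mrgprd and Scn9a 36.8% in Calca/Trpv1 neurons. Among neurons that met 1 rule only, the joint share was 0.89% in Trpm8, 76.2% in Mrgprd, 79.7% in Mrgpra3 and 66.1% in Nppb neurons, and Scn9a had 69.1% in Trpm8 neurons. Without the 5% of neurons with most UMIs it was 64.0% in Nppb neurons. Without neurons with Mbp it was 1.57% in Trpm8 neurons, and Scn9a had 48.8% in Nefh neurons. With mitochondrial genes at most 5%, Scn9a had 51.7% in Nefh neurons. With the levels of red blood cell-like barcodes over all their UMIs subtracted, the joint share was 0.38% in Trpm8 and 13.3% in Nefh neurons, and with those of glia-like barcodes 1.22% in Trpm8, 75.9% in Mrgprd and 13.6% in Nefh neurons. With the levels of red blood cell-like barcodes subtracted, the ratio of Mrgprd to Trpm8 neurons was 389 for Scn11a, and with these or the glia-like levels subtracted, no Scn10a was left in Trpm8 neurons and its ratio could not be computed. The causes were not tested. The 48 Mrgpra3 and 57 Nppb neurons limit what their counts can show. The removals of barcodes that share a name and of neurons with Mbp were chosen after seeing the data.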
